A study of Mus musculus with 16 samples.

Results

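The BCL2 family sets whether a cell lives or starts its own death at the mitochondrion, and the RNA of 10 of its genes was followed here in mouse follicular B cells, the mature B cells that recirculate through the follicles of lymphoid organs. The members were taken from a written list of gene symbols, older or newer synonyms included, and every probe of each gene was used. They comprise 4 pro-survival genes (Bcl2, Bcl2l1, Mcl1 and Bcl2a1b), 4 genes of the BH3-only class (Bcl2l11, Bmf, Bbc3 and Pmaip1) and 2 effector genes (Bax and Bak1). All 10 were found, with 20 of the 41174 probes on the array, and all 20 probes passed the filter on dim spots. They entered a fit of 20463 genes.

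The study measured 8 samples of cells labelled as follicular B cells from C.B17 mice on 16 dual-colour arrays, each sample on a pair of arrays with the dyes exchanged. The Auto.Neg group (n = 2) carried the VH3609μ/Vk21-5κ transgenes, which encode a receptor for the thymocyte antigen Thy-1, on a Thy-1 knockout background. VH3609μ/Vk19-17κ, a receptor for intestinal goblet cells, was the transgene pair of the Auto.Pos group (n = 2), although another field of the labels spells the light chain Vkappa17-17kappa. Wild-type mice gave the WT group (n = 2). There was 1 sample each of Non-edited and Edited cells, both from Thy-1 knockout animals that carried VH3609t +/- and Vk21-5Tg +/-. Auto.Neg, Non-edited and Edited thus share the Thy-1 knockout, which the labels give for neither Auto.Pos nor WT, so that the Auto.Pos and Auto.Neg groups differ in light chain and in Thy-1 at once. Ages, the promoters of the transgenes and the number of animals behind a sample are not stated in the labels, and p-values therefore measure the spread between samples, which may be technical. The second channel of every array held RNA of 6 pooled cell lines as a common reference (J558, P388d, EL4, R1, RS2 and DN3). All values below are log2 ratios of sample over reference, so that 0 stands for the level of the reference and a difference of 1 for a 2-fold difference. In bulk RNA of this kind, fewer cells of a type and less RNA per cell cannot be told apart.

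Pro-survival proteins of the family hold the death-inducing members in check at the mitochondrial outer membrane. BH3-only proteins are made or released under stress and bind the pro-survival proteins through a short helix, the BH3 motif. Bax and Bak1 are then free to open pores in the membrane, which releases cytochrome c and activates caspases. In B cells Bcl2 and Mcl1 support resting survival, Bcl2a1 genes and Bcl2l1 are raised by receptor and CD40 signals, and Bcl2l11 (Bim) is needed for the deletion of self-reactive cells.

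The probes decide which part of each transcript was read, and the 6 probes whose sequence lies in coding sequence are printed here as the scanner files give them, 5′ to 3′. Capitals mark the codons at the core of a named homology region of the family, BH1 in Bcl2 and Bak1, BH2 in Bcl2a1b and the BH3 motif in Bcl2l11, and the Bmf and Bax probes carry none of these. Their positions in the mouse build mm7, from the same files, are chr1:106612249-106612308 on the minus strand for Bcl2, chr9:88829714-88837575 on the plus strand for Bcl2a1b, chr2:127888010-127899105 on the plus strand for Bcl2l11, chr2:118273425-118273484 on the minus strand for Bmf, chr7:41641827-41641982 on the minus strand for Bax and chr17:25205887-25205946 on the minus strand for Bak1. Each probe is 60 bases long, so the wider spans of Bcl2a1b, Bcl2l11 and Bax cross an exon junction.
Bcl2: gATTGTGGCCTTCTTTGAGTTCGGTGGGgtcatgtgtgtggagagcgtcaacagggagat
Bcl2a1b: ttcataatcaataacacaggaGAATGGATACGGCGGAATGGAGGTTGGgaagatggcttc
Bcl2l11: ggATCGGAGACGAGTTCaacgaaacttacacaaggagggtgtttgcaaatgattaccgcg
Bmf: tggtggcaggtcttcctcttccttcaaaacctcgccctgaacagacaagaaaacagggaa
Bax: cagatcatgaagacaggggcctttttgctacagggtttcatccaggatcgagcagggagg
Bak1: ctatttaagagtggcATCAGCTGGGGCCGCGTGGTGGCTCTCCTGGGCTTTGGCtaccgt

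The share of probes well above background in the sample channel, by the scanner software's mark, ran from 61.9% to 81.9% over the 16 arrays, and the 2 arrays of a sample correlated at 0.906 to 0.970 across probes. Of the B cell markers, 7 of 7 measured were above the reference in all 8 samples, as were 3 of 3 follicular markers, while 5 of 6 T cell markers were below it in all 8. Macrophage markers were above the reference for 4 of 5 genes in all 8 samples, and their median log2 ratio was 1.49 and 2.87 for the Auto.Neg samples, 3.65 and 1.87 for the Auto.Pos samples, 2.85 and 3.81 for the WT samples, 0.93 for the Non-edited and 1.00 for the Edited sample. Erythroid and platelet markers were above it for 2 of 4 genes in all 8 samples, with medians of 1.40 and 1.41 for the Auto.Neg samples, 3.76 and 2.10 for the Auto.Pos samples, 1.43 and 2.58 for the WT samples, 0.63 for the Non-edited and 0.97 for the Edited sample, so that both Auto.Pos samples were above both Auto.Neg samples. Neutrophil markers (3 of 5) and NK cell markers (2 of 2) were also above it in all 8, with sample medians of 1.04 to 4.16 and of 1.36 to 2.79. The part of all these cells in the values below was not tested. The scanner files were extracted under 2 protocols, version 9.1 (Auto.Neg sample 2, Auto.Pos sample 1, WT sample 1) and version 9.5 (the other 5 samples), so each replicated group holds 1 sample of each. The spread within a group is thus also a gap between protocols. Across genes, Auto.Neg and Auto.Pos samples of the same protocol correlated at 0.978 (9.1) and 0.957 (9.5). The 2 Auto.Neg samples correlated at 0.903 and the 2 Auto.Pos samples at 0.904. The WT samples correlated at 0.923 with each other and at 0.910 to 0.925 with other samples of their own protocol.

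On their brightest probe, 5 members lay above the reference in all 8 samples (Bcl2, Mcl1, Bcl2a1b, Bmf and Pmaip1), 4 lay below it in all 8 (Bcl2l1, Bcl2l11, Bax and Bak1), and Bbc3 lay below it in 7. The second probe of Bak1 lay above it in 7 of 8. These positions are relative to a pool of cell lines and do not rank the genes by their amount. The members differed widely in how far the samples spread, from 0.49 for Mcl1 to 3.55 for Bbc3, as the plot of the members by sample shows.

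**Figure D1:**
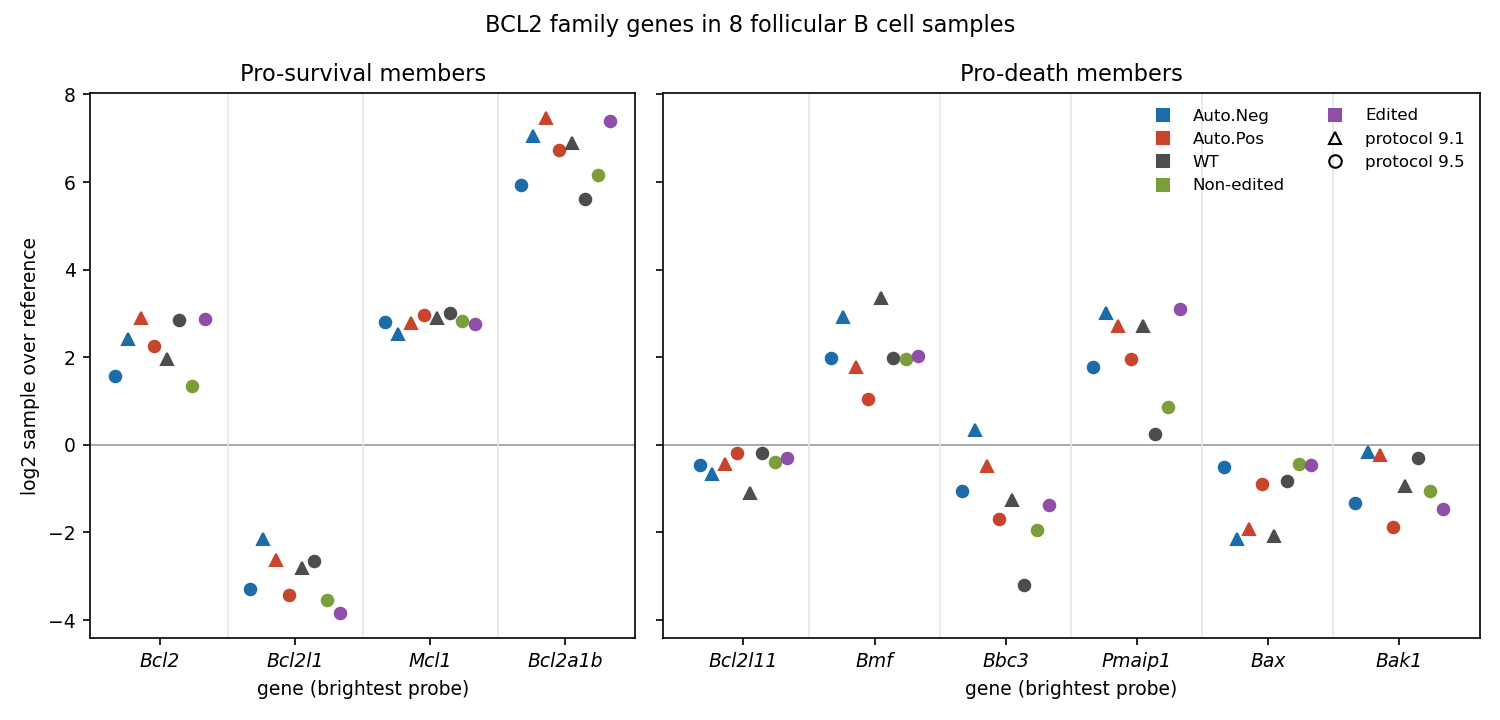
Log2 ratio of sample over reference (vertical axis) for the brightest probe of each of the 10 genes (horizontal axis), 1 symbol per sample, coloured by group, with triangles for protocol 9.1 and circles for protocol 9.5. Mcl1 stays between 2.53 and 3.02, whereas Bbc3 runs from -3.20 to 0.35, and the 3 triangles of Bax lie below its 5 circles.

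Of the pro-survival genes, Mcl1, whose protein is turned over quickly and is needed by B cells at most stages, was the most even between samples on its brightest probe. Its brightest probe (chr3:95536882-95536941, plus strand) read 2.80 and 2.53 for the Auto.Neg samples, 2.78 and 2.97 for the Auto.Pos samples, 2.90 and 3.02 for the WT samples, 2.82 for the Non-edited and 2.77 for the Edited sample. Both Auto.Neg samples were below both WT samples, and Auto.Pos overlapped with each of the others. The 2 arrays of a sample differed on this probe by a median of 1.02 and by at most 1.36 (WT sample 2). That is more than the spread of 0.49 over the samples. The first array of the pair read higher in all 8 samples, so much of the gap is a shift that the samples share. The second Mcl1 probe (chr3:95535570-95535629) was less even, at 2.29 and 1.32 for the Auto.Neg samples, 1.17 and 2.30 for the Auto.Pos samples, 1.19 and 0.90 for the WT samples, 2.38 for the Non-edited and 2.29 for the Edited sample. It placed both Auto.Neg samples above both WT samples, opposite to the brightest probe, and the probes correlated at -0.04 over the 8 samples.

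Bcl2a1b, one of the near-identical A1 genes that are switched on by NF-kB, stood furthest above the reference of the 10. Its single probe is annotated in the files to transcripts of Bcl2a1b, Bcl2a1d and Bcl2a1a, so the value is that of the group of copies. The log2 ratio was 5.92 and 7.04 for the Auto.Neg samples, 7.46 and 6.74 for the Auto.Pos samples, 6.89 and 5.62 for the WT samples, 6.15 for the Non-edited and 7.38 for the Edited sample. The 3 replicated groups overlapped, and the highest values belonged to Auto.Pos sample 1 and the Edited sample. The value of WT sample 2 rests on arrays that disagreed, 6.87 in one dye orientation and 4.37 in the other, a gap of 2.50 where the median gap over samples was 0.15.

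Bcl2, the founding member, whose protein guards resting lymphocytes, was read by 3 probes. The brightest (chr1:106438098-106438157, minus strand), spotted 10 times per array, read 1.56 and 2.42 for the Auto.Neg samples, 2.88 and 2.25 for the Auto.Pos samples, 1.95 and 2.84 for the WT samples, 1.34 for the Non-edited and 2.88 for the Edited sample. The 2 arrays of a sample differed on it by a median of 0.34 and by at most 0.58, and the samples spread over 1.54. The coding probe printed above stayed between 2.58 and 3.10. The remaining probe (chr1:106610589-106610648, minus strand), designed on a cDNA clone rather than the reference transcript, read 5.13 and 5.88 for the Auto.Neg samples, 6.03 and 5.64 for the Auto.Pos samples, 4.71 and 4.16 for the WT samples, 5.11 for the Non-edited and 5.43 for the Edited sample. Both WT samples were below the 6 others on it, an order that 5.92% of 29634 probes showed for WT. Over the 8 samples the brightest probe and this one correlated at 0.17, the brightest and the coding probe at 0.43, and this one and the coding probe at 0.57.

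Bcl2l1, which encodes Bcl-xL, lay below the reference on each of its 3 probes in all 8 samples. The brightest (chr2:152521752-152521811, minus strand, 10 spots) read -3.28 and -2.16 for the Auto.Neg samples, -2.63 and -3.43 for the Auto.Pos samples, -2.82 and -2.65 for the WT samples, -3.54 for the Non-edited and -3.84 for the Edited sample. The lowest values were those of the Edited and Non-edited samples, and the 3 replicated groups overlapped. A further probe (chr2:152570306-152570365) ran from -1.79 to -0.83, with both Auto.Pos samples (-1.72 and -1.78) below both Auto.Neg samples (-0.83 and -1.39). The last (chr2:152570851-152570910) stayed between -0.38 and -0.10, and there both WT samples were above the 6 others, with the nearest values 0.04 apart. Some such order, both WT samples below or above all 6 others, was shown by 9.73% of probes.

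**Figure D2:**
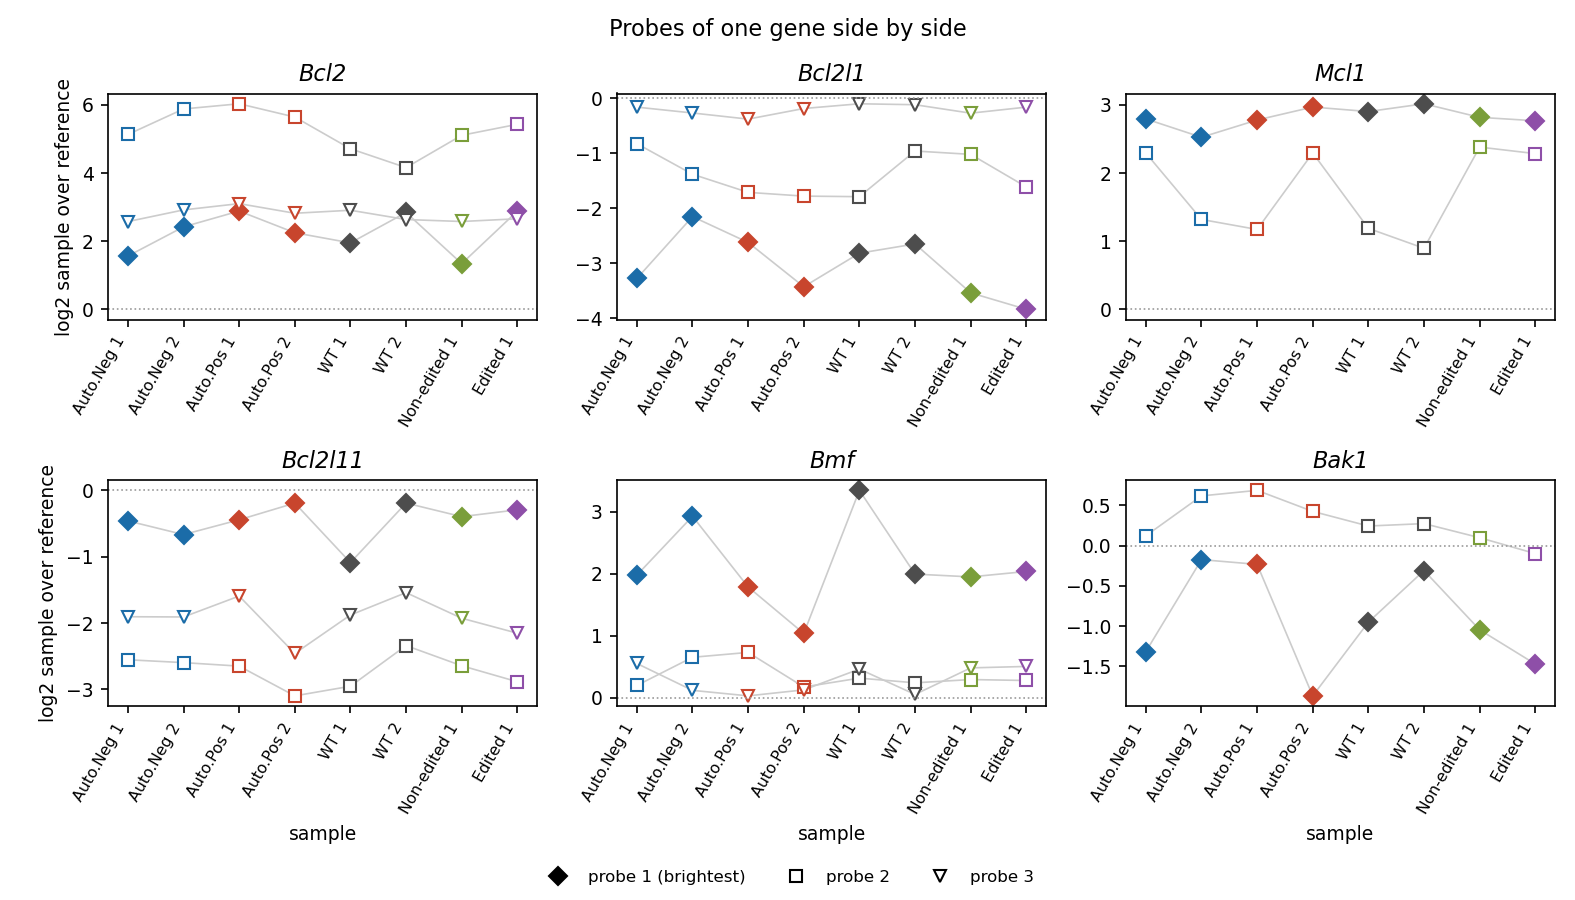
Log2 ratio of sample over reference (vertical axes, scaled to each gene) in the 8 samples (horizontal axes) for every probe of the 6 genes with over 1 probe; filled diamonds are the brightest probe, open squares and triangles the others, and grey lines join the values of a probe. The probes of Mcl1 and of Bcl2l1 lie at different ratios and do not rise and fall together, while 2 of the Bcl2l11 probes do, and the brightest Bmf probe lies above the other 2.

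Among the BH3-only genes, Bmf, whose product is released from the cytoskeleton when cells lose attachment, was lowest in Auto.Pos on 1 of its 3 probes. The brightest probe (chr2:118269632-118269691, minus strand) read 1.98 and 2.92 for the Auto.Neg samples, 1.79 and 1.04 for the Auto.Pos samples, 3.34 and 1.99 for the WT samples, 1.95 for the Non-edited and 2.04 for the Edited sample. Both Auto.Pos samples were below the 6 others, an order that 1.87% of the 20463 genes showed for Auto.Pos. The Non-edited value rests on 1 array, since the spot of the other was marked as an outlier. The coding probe of Bmf did not share the pattern, at 0.20 and 0.65 for the Auto.Neg samples, 0.73 and 0.18 for the Auto.Pos samples, 0.32 and 0.24 for the WT samples, 0.30 for the Non-edited and 0.28 for the Edited sample. The third probe (chr2:118272090-118272149) was above background in the sample channel on 10 of 16 arrays and stayed between 0.03 and 0.55.

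Bbc3, which encodes Puma, a direct target of p53, had the widest spread. Its probe (chr7:14080459-14080518, plus strand) read -1.05 and 0.35 for the Auto.Neg samples, -0.49 and -1.68 for the Auto.Pos samples, -1.25 and -3.20 for the WT samples, -1.93 for the Non-edited and -1.38 for the Edited sample. Both Auto.Neg samples were above both WT samples, and Auto.Pos overlapped with each. WT sample 2 was the lowest of the 8 by 1.27.

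Pmaip1, which encodes Noxa, a BH3-only protein that binds Mcl1 and A1, was read by 1 probe (chr18:66857729-66857788, plus strand). It stood at 1.77 and 3.01 for the Auto.Neg samples, 2.71 and 1.97 for the Auto.Pos samples, 2.70 and 0.26 for the WT samples, 0.86 for the Non-edited and 3.10 for the Edited sample. The 2 WT samples were further apart than any other pair of replicates of this gene, with an SD of 1.73, and the 3 groups overlapped.

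Bcl2l11 was close to the reference on its brightest probe (chr2:127903168-127903227, plus strand), at -0.46 and -0.67 for the Auto.Neg samples, -0.44 and -0.19 for the Auto.Pos samples, -1.09 and -0.19 for the WT samples, -0.40 for the Non-edited and -0.29 for the Edited sample. Both Auto.Pos samples were above both Auto.Neg samples there, with the nearest values 0.02 apart. The BH3 coding probe ran from -2.46 to -1.54 and the third probe (chr2:127869853-127870534) from -3.10 to -2.34, and these correlated at 0.80 over the 8 samples, while the brightest probe correlated with them at -0.17 and 0.20. On the third probe both Auto.Pos samples were below both Auto.Neg samples, opposite to the brightest probe.

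Of the effectors, Bax was read by the coding probe printed above, spotted 10 times per array, at -0.51 and -2.14 for the Auto.Neg samples, -1.92 and -0.90 for the Auto.Pos samples, -2.07 and -0.83 for the WT samples, and -0.45 for each of the Non-edited and Edited samples. The 3 replicated groups overlapped throughout, with group means of -1.33, -1.41 and -1.45. The brightest Bak1 probe (chr17:25204734-25204793, minus strand) read -1.32 and -0.17 for the Auto.Neg samples, -0.23 and -1.87 for the Auto.Pos samples, -0.95 and -0.31 for the WT samples, -1.04 for the Non-edited and -1.47 for the Edited sample. The coding probe of Bak1 lay near the reference, between -0.10 and 0.69, with both Auto.Pos samples above both WT samples.

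Auto.Pos and Auto.Neg set follicular cells labelled as autoreactive against cells that carry an autoreactive receptor in mice without its antigen. No member was called at an adjusted p under 0.05 by limma (0 of 10, beside 0.0147% of 20463 genes), and 0 of 10 passed at an unadjusted p under 0.05 (1.04% of genes). The groups did not overlap for 2 of 10 members, where 19.2% of all genes did not overlap. Bcl2l11 was the 1 higher in Auto.Pos (11.0% of genes) and Bmf the 1 lower (8.17% of genes). Over the 20 probes the groups were apart for 4, beside 18.7% of all probes. The pro-survival genes were higher for 3 of 4, with a median difference of 0.39 and a range of -0.31 (Bcl2l1) to 0.61 (Bcl2a1b). The pro-death genes were lower for 5 of 6, with a median of -0.20 and a range of -1.04 (Bmf) to 0.25 (Bcl2l11), and the median over all genes was 0.02. Pmaip1 (-0.05) and Bax (-0.09) were lower by little. These counts rest on the brightest probes, and the share of all genes of each sign was not computed. Other probes had the opposite sign for Mcl1 (-0.07), Bcl2l11 (-0.30 and -0.12), Bmf (coding probe, 0.03) and Bak1 (0.19). The other probes of Bcl2 and Bcl2l1 and the third Bmf probe kept the sign. The standard errors of the 10 single differences ran from 0.21 to 0.90.

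Bmf had the lowest p of the 10 in this comparison, at 1.04 below Auto.Neg (SE 0.59, 95% interval -2.55 to 0.47, limma unadjusted p = 0.139, adjusted p = 1.00). The single difference within protocol 9.1, whose samples also share a slide, was -1.14, and within protocol 9.5 it was -0.94. Leaving out 1 sample moved the Bmf difference between -1.51 (without Auto.Neg sample 1) and -0.56 (without Auto.Neg sample 2). The single differences of Bcl2, Bcl2a1b, Mcl1 and Bcl2l11 were positive in both protocols, and those of Bcl2l1, Bmf, Bbc3 and Bak1 were negative in both, that of Bak1 by only -0.06 within protocol 9.1. Bcl2l1 turned to 0.25 and Bak1 to 0.27 without Auto.Neg sample 2, and to 0.09 and 0.51 without Auto.Pos sample 2. Here and below, leaving out 1 sample of a compared group sets 1 protocol against both, so protocol enters the difference. Between protocols 9.1 and 9.5 Pmaip1 and Bax changed sign, at -0.30 and 0.20 for Pmaip1 and at 0.22 and -0.39 for Bax. In the main fit, which leaves protocol out, the Bax interval was -1.97 to 1.80. That interval leaves room for more than a 3-fold difference in either direction. With protocol as a block, as described below, the Bax difference was -0.09 (SE 0.21). A lack of difference was not shown.

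Since each replicated group spans both protocols, limma was also fitted with protocol as a block. It called 0 of 10 members at an adjusted p under 0.05 in each of the 3 comparisons, beside 0.0293%, 0% and 0% of genes in the order described here. At an unadjusted p under 0.05 it gave 3 members in Auto.Pos against Auto.Neg (2.70% of genes), 3 in Auto.Pos against WT (10.8%) and 1 in Auto.Neg against WT (9.86%). In Auto.Pos against Auto.Neg these were Bmf (-1.04, SE 0.21, limma unadjusted p = 0.00649), Bbc3 (-0.74, SE 0.24) and Bcl2a1b (0.61, SE 0.21). In Auto.Pos against WT they were Bmf (-1.25, SE 0.21, limma unadjusted p = 0.00311), Bbc3 (1.14, SE 0.24) and Bcl2a1b (0.84, SE 0.21), and in Auto.Neg against WT it was Bbc3 (1.88, SE 0.24, limma unadjusted p = 0.00104). Their adjusted p was 0.228 or more.

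**Figure D3:**
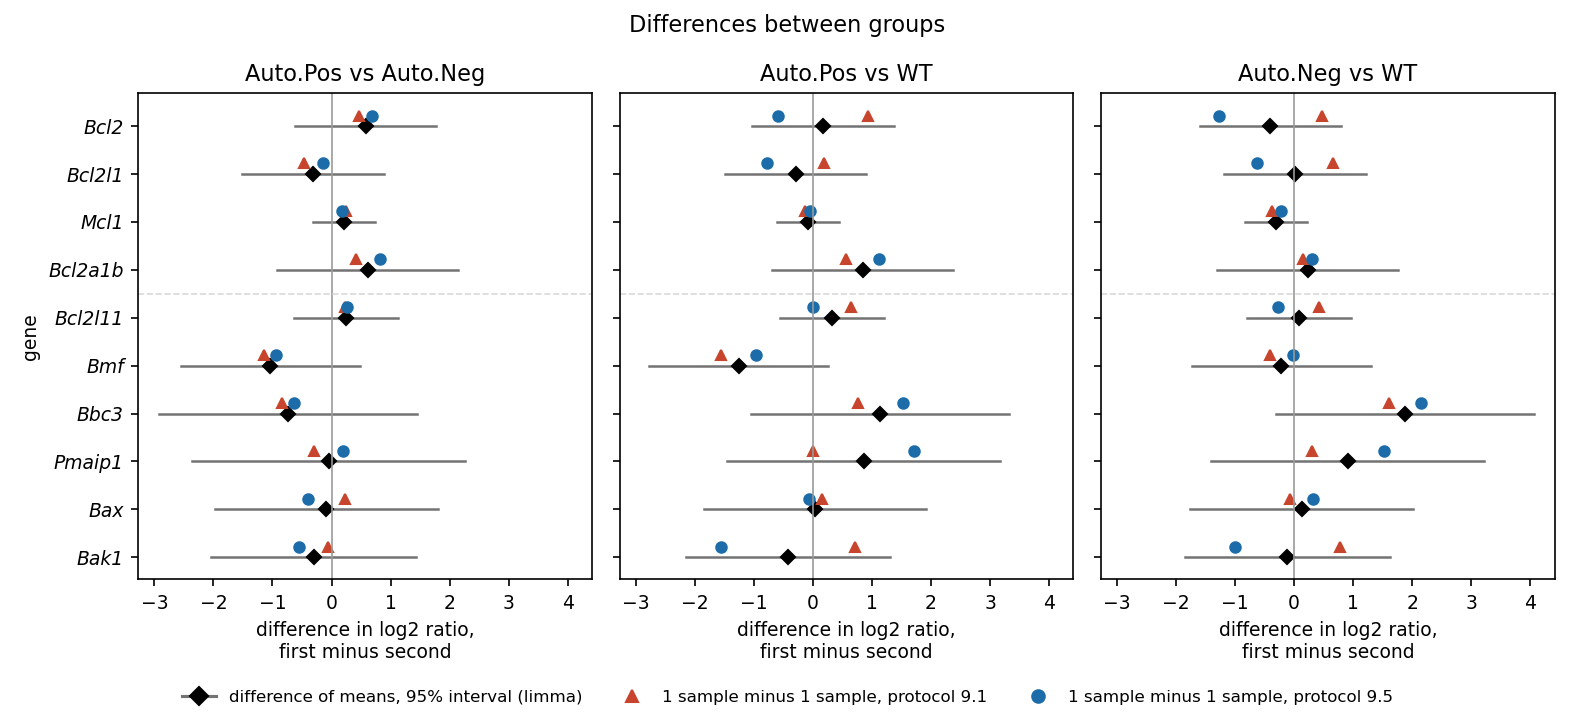
Difference in log2 ratio, first group minus second (horizontal axes), for the 10 genes (vertical axis, pro-survival above the dashed line), in the 3 comparisons. Diamonds with bars are limma differences of means with 95% intervals, and triangles and circles are single differences within protocols 9.1 and 9.5. Every interval spans 0, Bmf is negative within both protocols in Auto.Pos against Auto.Neg and against WT, and Bbc3 is positive within both in Auto.Neg against WT.

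Auto.Pos against WT again gave 0 of 10 members called by limma (0% of genes) and 0 of 10 at an unadjusted p under 0.05 (5.62% of genes). The groups did not overlap for 1 member, Bmf, which was lower, beside 29.6% of genes in either direction (19.2% higher and 10.4% lower), and for 4 of 20 probes, beside 28.8%. Bmf was 1.25 lower in Auto.Pos (SE 0.59, 95% interval -2.77 to 0.26, limma unadjusted p = 0.0863), with single differences of -1.55 within protocol 9.1 and -0.96 within protocol 9.5. Bbc3 was 1.14 higher (SE 0.86) and Bcl2a1b 0.84 higher (SE 0.60), each in both protocols. Leaving out 1 sample moved Bmf between -1.93 (without WT sample 2) and -0.58 (without WT sample 1), and Bbc3 between 0.17 (without WT sample 2) and 2.12 (without WT sample 1). The differences of 5 members changed sign between protocols 9.1 and 9.5, at 0.93 and -0.59 for Bcl2, 0.20 and -0.78 for Bcl2l1, 0.64 and -0.00058 for Bcl2l11, 0.15 and -0.07 for Bax, and 0.72 and -1.56 for Bak1. The pro-survival genes were higher for 2 of 4, with a median difference of 0.04. The pro-death genes were higher for 4 of 6, with a median of 0.18, and the median over all genes was 0.06. On the cDNA clone probe of Bcl2 Auto.Pos was 1.40 above WT (SE 0.36, 95% interval 0.47 to 2.33, limma unadjusted p = 0.0115, adjusted p = 0.671 over probes), the lowest p of the 20 probes, while the coding probe had group means of 2.96 and 2.77. With scan day as a random block, an alternative chosen after seeing the data, limma called 6 of 10 members in this comparison, with Bcl2l1 (-0.73), Bmf (-1.04) and Bak1 (-1.38) lower and Bcl2a1b (1.02), Bbc3 (1.40) and Pmaip1 (1.51) higher in Auto.Pos, along with 4180 of all genes. In that fit the estimated correlation within a day was 0.92, and a single day holds samples of both groups, 1 of each.

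Auto.Neg against WT gave 0 of 10 members called by limma (0% of genes) and 0 of 10 at an unadjusted p under 0.05 (4.59% of genes). The groups did not overlap for 2 members, beside 25.0% of genes, with Bbc3 higher (15.4% of genes) and Mcl1 lower (9.57% of genes), and for 6 of 20 probes, beside 24.6%. Bbc3 was 1.88 higher in Auto.Neg (SE 0.86, 95% interval -0.31 to 4.06, limma unadjusted p = 0.0784), with single differences of 1.60 within protocol 9.1 and 2.16 within protocol 9.5. It moved between 0.90 (without WT sample 2) and 2.85 (without WT sample 1) when 1 sample was left out. Mcl1 was 0.30 lower on the brightest probe (SE 0.21) and 0.76 higher on the other (SE 0.51). The cDNA clone probe of Bcl2 was 1.07 higher in Auto.Neg (SE 0.36, limma unadjusted p = 0.0315). On the brightest probes, pro-survival genes were higher for 2 of 4, with a median difference of -0.14. Pro-death genes were higher for 4 of 6, with a median of 0.10, and the median over all genes was 0.04. The same 5 members changed sign between protocols 9.1 and 9.5 here, at 0.47 and -1.28 for Bcl2, 0.66 and -0.63 for Bcl2l1, 0.42 and -0.27 for Bcl2l11, -0.07 and 0.32 for Bax, and 0.78 and -1.01 for Bak1. The 3 comparisons share their groups and are not independent of each other.

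In the order of the group means, Bmf ran from Auto.Pos (1.41 ± 0.53, SD, n = 2) through Auto.Neg (2.45 ± 0.67) to WT (2.67 ± 0.95), and Bbc3 from WT (-2.23 ± 1.38) through Auto.Pos (-1.08 ± 0.85) to Auto.Neg (-0.35 ± 0.99). No neighbours in these orders passed the threshold of limma, nor did any groups for the other 8 genes.

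The 2 extraction protocols were also compared, and the 5 members with the largest differences are given here, none of them called. The share of all genes that differed as far was not computed. With the groups in the fit, limma put protocol 9.1 below 9.5 by 1.30 for Bax (SE 0.17, adjusted p = 0.0742), and all 3 samples of protocol 9.1 were below the 5 others, an order shown by 8.52% of genes, where 25.1% were apart in either direction. Bbc3 was 1.51 higher under protocol 9.1 (SE 0.20, adjusted p = 0.0742), Pmaip1 1.47 (SE 0.37, adjusted p = 0.112), Bcl2a1b 1.04 (SE 0.17, adjusted p = 0.0798) and Bmf 1.01 (SE 0.17, adjusted p = 0.0823) by the same limma fit. No gene of 20463 was called for protocol at an adjusted p under 0.05 (0%). Protocol is named here as the file headers name it. No scan day holds samples of both protocols, so protocol and scan day cannot be told apart.

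The channels of these genes were also read separately, as log2 intensity scaled between arrays. For Bbc3 the reference channel read 11.7 to 12.0 under protocol 9.1 and 13.2 to 13.5 under protocol 9.5, although the same pooled RNA is named for every array. Its sample channel read 12.1 and 12.2 for the Auto.Neg samples, 11.2 and 11.8 for the Auto.Pos samples and 10.7 and 10.2 for the WT samples. The Bmf reference channel likewise read 10.2 in the 3 samples of protocol 9.1 and 11.3 to 11.5 in the 5 of protocol 9.5. The Bmf sample channel read 12.0 and 12.4 in Auto.Pos and 13.1 to 13.5 in the 6 other samples, with the outlier spot of the Non-edited sample kept. For Pmaip1 the reference channel read 9.68 to 9.97 under protocol 9.1 and 10.4 to 10.8 under protocol 9.5. For Bax the reference channel was higher in 2 samples of protocol 9.1 (11.8 in each) but lower in the other, WT sample 1 (10.3), whose sample channel was also the lowest (8.24). No test was made on single channels, which lack the correction that the ratio to a common reference gives.

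**Figure D4:**
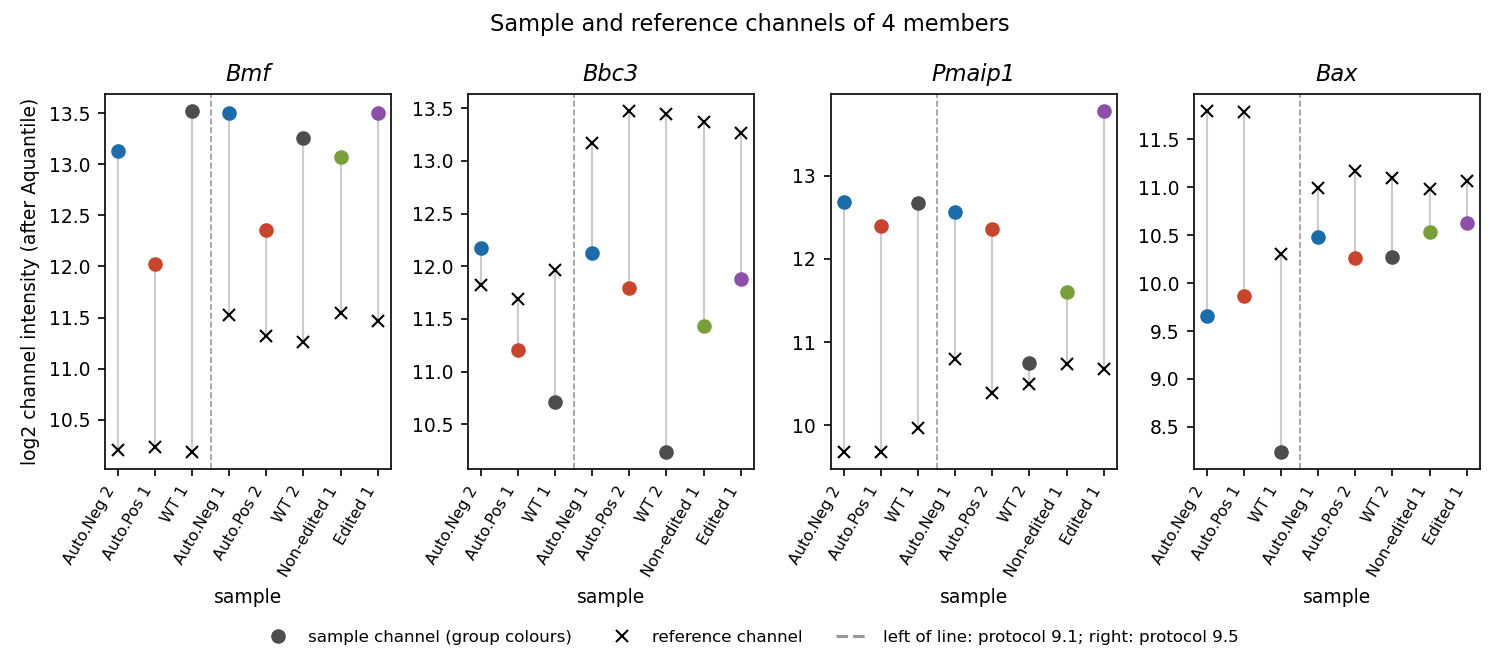
Log2 intensity of the sample channel (filled circles, coloured by group: Auto.Neg blue, Auto.Pos red, WT grey, Non-edited green, Edited purple) and of the reference channel (crosses) in the 8 samples (horizontal axes), for Bmf, Bbc3, Pmaip1 and Bax, each with its own vertical scale; samples left of the dashed line were extracted under protocol 9.1. The reference channel of Bbc3 steps from at most 12.0 on the left to at least 13.2 on the right, and the sample channel of Bmf reads 12.0 and 12.4 in the Auto.Pos samples.

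Edited and Non-edited cells come from the same genotype, and editing is the usual term for replacing a receptor chain by renewed gene rearrangement. With 1 sample each there is no test, and the rule was a difference of at least 2-fold in both dye orientations. Bmf was measured in 1 orientation only, so 9 members could meet it. It was met by 3 of these 9, all higher in Edited cells, beside 1.22% of 20350 genes higher and 0.172% lower (1.40% in all). Pmaip1 was 2.24 higher (4.72-fold), with 2.51 and 1.97 in the separate orientations. Bcl2 was 1.54 higher on its brightest probe (2.91-fold), with 1.54 in each orientation, but 0.32 on the cDNA clone probe and 0.08 on the coding probe. Bcl2a1b was 1.23 higher (2.35-fold), with 1.30 and 1.16. Members past 2-fold numbered 2 in place of 3 under 4 other settings. Bcl2a1b was lost with median centring, with the scanner software's own ratio and with the series table, and Bcl2 with the mean of a gene's probes. The scanner's ratio put 808 genes past 2-fold in place of 284. Counts over all genes under the other 3 settings are not given here, so their member counts have no share beside them.

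The remaining 7 members were less than 2-fold apart. Bbc3 was 0.55 higher in Edited cells, Bak1 was 0.43 lower, Bcl2l1 was 0.30 lower, and Bcl2l11, Mcl1 and Bax differed by -0.05 to 0.10. Bmf was 0.25 higher in the 1 dye orientation measured in both samples. The 2 samples of the Auto.Neg, Auto.Pos and WT groups were 1.24, 0.74 and 2.45 apart in Pmaip1, 0.86, 0.64 and 0.89 apart in Bcl2, and 1.12, 0.72 and 1.27 apart in Bcl2a1b. Those pairs each span both protocols, whereas the Edited and Non-edited samples were scanned on the same day under the same protocol, on separate slides.

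**Figure D5:**
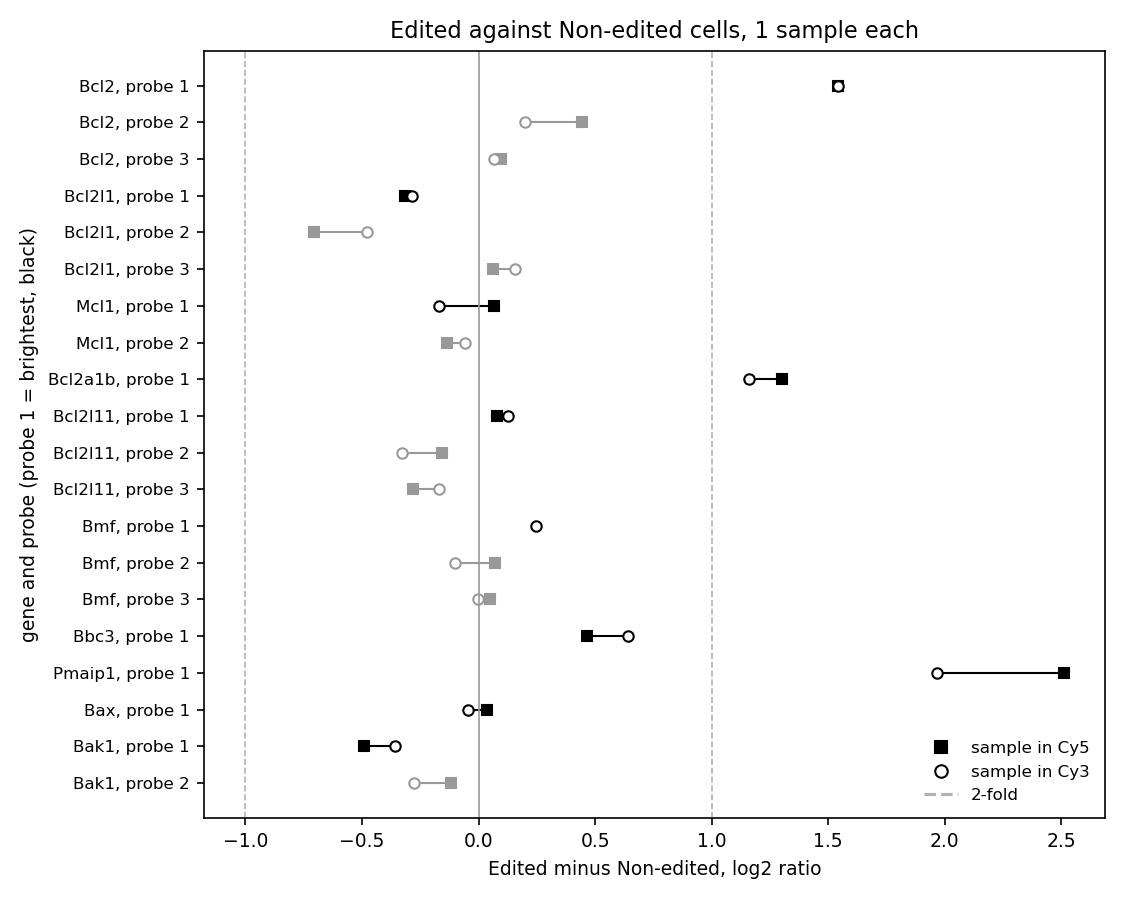
Edited minus Non-edited, in log2 ratio (horizontal axis), for each of the 20 probes (vertical axis), with the sample in Cy5 as squares and in Cy3 as circles, and dashed lines at 2-fold. Brightest probes are black. Pmaip1, Bcl2a1b and the brightest Bcl2 probe lie beyond 2-fold in both orientations, and the other 2 Bcl2 probes lie below 0.45.

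The wider pathway was described by 49 listed genes, of which 45 were measured. They covered other family members, the caspase machinery, the death receptor arm and regulators. None of the 45 was called by limma in any of the 3 comparisons, and in each of them 22 were higher and 23 lower in the first group, with medians of -0.04, -0.01 and -0.02, beside 0.02, 0.06 and 0.04 over all genes. At an unadjusted p under 0.05 there were 1, 2 and 1 of 45, where 1.04%, 5.62% and 4.59% of all genes were, and these 4 are named because they had the smallest p in the list. Bcl2a1c, an A1 relative, was 0.82 higher in Auto.Pos than in Auto.Neg (SE 0.31, limma unadjusted p = 0.0444), at 4.03 and 4.74 against 3.53 and 3.60. E2f1, a cell cycle transcription factor that can induce BH3-only genes, was 0.70 lower in Auto.Pos than in WT (SE 0.27, limma unadjusted p = 0.0465), and the caspase inhibitor Xiap was 0.66 lower (SE 0.26, limma unadjusted p = 0.0488). Birc3, an NF-kB target that restrains death receptor signalling, was 0.57 higher in Auto.Neg than in WT (SE 0.18, limma unadjusted p = 0.024), at 4.78 and 4.70 against 4.22 and 4.11. Each of these had an adjusted p of 0.87 or more.

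The genes whose ratios over the 8 samples were most like those of the 2 members with the highest F were also read off. For Bmf they were LOC668334 (r = 0.970), the transcript AK042129 (0.967) and Zfp24 (0.967), and for Bbc3 they were TC1442897 (0.979), Zfyve27 (0.972) and Vmn1r43 (0.969). They are the highest of 20463 genes over 8 samples that share arrays and protocols, and are given as a description.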

How the data were processed

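Per the file headers, the scanner files hold raw spot and background intensity in both channels, extracted with Agilent Feature Extraction 9.1.1.1, 9.1.3.1 or 9.5.1.1, and a log10 ratio of red over green. The deposited series table holds a log2 ratio per array, for which the submitters' processing notes name limma without a version. Further processing is not given in the sources used here. Per the labels' protocols, total RNA was amplified and labelled with Cy3 or Cy5.

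Intensities were corrected with normexp (offset 50) and loess in limma 3.58.1 (R 4.3.3, with the data.table package, version 1.17.8), turned to sample over reference by the labelled dye, and averaged over the 2 arrays of a sample. Spots marked as outliers were dropped. A probe was kept when well above background in the sample channel on both arrays of at least 2 samples, which left 29640 of 41174 probes. The brightest probe stood for its gene, and 6 genes lacking a sample were not tested. Probe names came from accessions (22951), file names (8455), symbols (6659) and synonyms (3109). Single channels were scaled between arrays with Aquantile.

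limma fitted 1 mean per group to 8 samples (3 residual and 2.11 prior degrees of freedom), with Benjamini-Hochberg adjustment over 20463 genes. On simulated data for Auto.Pos against Auto.Neg, the fit called 0 of 67 genes changed by 1 on the log2 scale, 24 of 67 changed by 2 and 60 of 66 changed by 4, and 4 of 20263 unchanged genes. The simulated noise was independent between samples and held no difference between protocols or days, so these rates need not hold for the real samples. The number of arrays limits the precision. The members and lists were chosen with earlier results of these data known. Pathway genes were named when among the 4 with the smallest unadjusted p under 0.05 in a comparison, and likeness was taken for the 2 members of highest F, with the 3 highest r. Sample numbers do not pair the groups, although those of Auto.Pos and WT match by protocol. The deposited value table served as an alternative only, since 10 of its 16 columns correlated best with an array other than their own, and it has 0 columns of no sample. Its scale and centring fit log2 ratios with column medians of -0.02 to 0.02, and its direction differs between columns.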

Additional observations from a re-analysis of the deposited data

How the results depend on the processing

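A total of 500 differences were recomputed, 1 for each member, comparison and other setting. Of these, 420 were labelled the same, 14 passed the threshold in the same direction and 3 moved. In the fits, the same means an unchanged direction and side of the threshold. There 63 turned their sign. Of those, 2 also passed the threshold, both in the series table (Pmaip1 at 2.35 in Auto.Pos against Auto.Neg, Bcl2a1b at -6.24 in Auto.Neg against WT). Single differences within slide 2 (Auto.Pos against Auto.Neg) and scan day 3 (Auto.Pos against WT) have no p. They were labelled only by their distance from the main difference, against the SD within groups. Outside the 63, Bax turned within slide 2 (0.22), and Bax (-0.07), Bcl2l11 (-0.00058) and Bcl2 (-0.59) within scan day 3. The series table read by its labels, which mixes groups, called 7704 genes and 6 members in Auto.Pos against Auto.Neg and 6962 genes and 4 members in Auto.Neg against WT. The main setting called 3 genes in Auto.Pos against Auto.Neg. Median centring called 1 there, no filter on dim probes 0, the protocol as a block 6 and each fit without 1 sample 0 (135 to 445 at an unadjusted p under 0.05). With the sample number as a replicate block limma called 0 genes there. Deviations of samples with the same number correlated at -0.79 (Auto.Neg, Auto.Pos), -0.28 (Auto.Neg, WT) and 0.25 (Auto.Pos, WT). The numbers thus do not pair all 3 groups. The protocol block equals the crossed pairing for the pairs with Auto.Neg and the same-number pairing for Auto.Pos and WT. The own log ratio of the scanner software called 13 genes in Auto.Pos against WT and put 808 genes, in place of 284, past 2-fold in Edited against Non-edited. Members past 2-fold there numbered 2 in place of 3 with median centring, the scanner's ratio, the series table and the mean of a gene's probes (Bcl2 0.65), and the Pmaip1 difference stayed between 2.07 and 2.38. Of these settings, a count over all genes is given here only for the scanner's ratio. Scan day as a random block (estimated correlation 0.92) called 39 genes in Auto.Pos against Auto.Neg, 4180 genes and 6 members in Auto.Pos against WT and 459 genes in Auto.Neg against WT. Slide as a random block was not run, since a single slide holds 2 samples and no correlation could be estimated. The cause of these changes was not tested.

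Single differences and left-out samples are set aside here. Turned differences in Auto.Pos against Auto.Neg were Bcl2l11 (-0.0574 as the mean of its probes, -0.58 in the series table), Bmf (2.15 in the table), Pmaip1 (0.00475 with the scanner's ratio, 2.35 in the table) and Bax (0.12 with scan day). In Auto.Pos against WT they were Bcl2 (-0.11 in the table, -0.49 with scan day), Mcl1 (0.0345 in the table, 0.30 as the mean), Bcl2l11 (-0.35 in the table, -0.0736 as the mean), Bmf (0.23 in the table) and Bax (-0.32 with median centring, -0.0129 with the scanner's ratio, -0.88 in the table). In Auto.Neg against WT they were Bcl2 (0.21 as the mean), Bcl2l1 (-0.12 with median centring, -0.0522 without background correction, -0.0689 with the scanner's ratio, -0.27 with scan day), Mcl1 (0.23 as the mean), Bcl2a1b (-6.24 in the table), Bcl2l11 (-0.0162 as the mean, -0.12 with scan day), Bmf (0.00249 as the mean, 0.0241 with scan day), Pmaip1 (-0.99 in the table), Bax (-0.0879 with median centring, -0.11 with scan day) and Bak1 (0.80 in the table).

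Leaving out 1 sample turned 19 differences. Each of these fits sets 1 protocol in a group against both in the other, so protocol enters the difference. In Auto.Pos against Auto.Neg the ranges were -0.87 to 0.25 for Bcl2l1, -0.67 to 0.57 for Pmaip1, -0.90 to 0.73 for Bax and -1.12 to 0.51 for Bak1. In Auto.Pos against WT they were -0.28 to 0.62 for Bcl2, -0.69 to 0.11 for Bcl2l1, -0.18 to 0.0090 for Mcl1, -0.13 to 0.77 for Bcl2l11, -0.36 to 2.08 for Pmaip1, -0.58 to 0.66 for Bax and -1.24 to 0.40 for Bak1. In Auto.Neg against WT they were -0.85 to 0.0415 for Bcl2, -0.54 to 0.58 for Bcl2l1, -0.41 to 0.86 for Bcl2a1b, -0.37 to 0.52 for Bcl2l11, -0.89 to 0.46 for Bmf, -0.31 to 2.13 for Pmaip1, -0.69 to 0.94 for Bax and -0.69 to 0.46 for Bak1. The lone sample that remained was assumed to vary like the other groups.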
